A study of Mus musculus with 2 samples.

Results

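CD8 T cells whose receptor was found in 5 or more cells, called expanded clonotypes here, were set against CD8 T cells whose receptor was found in 1 cell, called single clonotypes. Receptors were compared by the nucleotides of complementarity-determining region 3 (CDR3) and by the V and J segments of all productive chains, and a clonotype needed exactly 1 TRB and 1 or more TRA. A cell entered the CD8 class with at least 1 Cd8a or Cd8b1 unique molecular identifier (UMI) and no Cd4 UMI. Of 5333 kept cells, 2391 were of the CD8 class and 1270 of these had a clonotype, or 53.1%. Expanded clonotypes held 879 of the 1270 cells, which is 69.2% (95% Clopper-Pearson interval 66.6 to 71.7), in 50 clonotypes. Single clonotypes held 242 cells, or 19.1%. The other CD8 class cells lacked a TRB chain (625 cells), had 2 or more (97 cells) or had 1 TRB and no TRA chain (399 cells).

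The cells came from lethally irradiated Balb/c mice that had received C57BL/6 bone marrow (5000000 cells) and splenocytes with 800000 alpha beta T cells, a mouse model of graft-versus-host disease. On day 21 the colons of 5 mice were pooled, and donor T cells were sorted by H2-Kb, the donor class I molecule, and TCR beta. Both groups of cells therefore share the strain pair, the tissue, the day, the sort and the droplets. The pool is 1 sample, from which a droplet RNA library (10x Genomics, 5′ chemistry) was made together with a receptor library from its cDNA. Which mouse a cell came from is not given, so no difference below has a replicate check, no p-value was computed, and all intervals are 95% intervals that cover counting error only. The titles name CD4 T cells, although the matrix holds CD8 cells as well.

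CD8 T cells recognise peptides on class I major histocompatibility complex (MHC) molecules through a receptor whose TRA and TRB genes are each joined once from V and J (and, for TRB, D) segments, with bases added or lost at the joins. The joined sequence is passed on when a T cell divides, so that cells with the same pair of chains are read as progeny of 1 ancestor. Activated CD8 cells make granzymes and perforin, which kill target cells, and cytokines such as interferon gamma. Naive and central memory cells instead carry Ccr7, a lymph node homing receptor, and Tcf7, a transcription factor, and in graft-versus-host disease donor CD8 cells that recognise host tissue antigens enter the gut.

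The largest clonotypes are shown by their CDR3 because these sequences define the groups. Each line gives the nucleotides from 5′ to 3′ as deposited. Capitals mark bases that matched neither the germline V segment, read from the 5′ end, nor the J segment, read from the 3′ end, in the GENCODE M21 annotation of mm10; for TRB they include the D segment. The TRB locus lies on mouse chromosome 6 and the TRA locus on chromosome 14.
Clonotype 1, TRB (TRBV13-1, TRBJ1-3): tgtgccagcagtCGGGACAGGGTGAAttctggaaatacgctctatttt
Clonotype 1, TRA (TRAV7-5, TRAJ45): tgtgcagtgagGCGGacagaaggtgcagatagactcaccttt
Clonotype 2, TRB (TRBV13-1, TRBJ2-5): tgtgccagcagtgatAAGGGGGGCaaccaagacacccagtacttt
Clonotype 2, TRA (TRAV6D-7, TRAJ35): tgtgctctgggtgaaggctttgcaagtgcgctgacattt
Clonotype 2, second TRA (TRAV8-1, TRAJ22): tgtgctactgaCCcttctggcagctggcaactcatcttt
Clonotype 3, TRB (TRBV4, TRBJ2-7): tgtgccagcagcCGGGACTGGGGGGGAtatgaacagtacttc
Clonotype 3, TRA (TRAV10N, TRAJ13): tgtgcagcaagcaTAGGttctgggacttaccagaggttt
Clonotype 4, TRB (TRBV12-1, TRBJ1-2): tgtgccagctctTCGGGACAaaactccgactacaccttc
Clonotype 4, TRA (TRAV14-1, TRAJ16): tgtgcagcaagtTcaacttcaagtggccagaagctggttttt
Clonotype 5, TRB (TRBV12-1, TRBJ1-2): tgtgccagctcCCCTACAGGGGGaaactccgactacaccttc
Clonotype 5, TRA (TRAV9N-3, TRAJ9): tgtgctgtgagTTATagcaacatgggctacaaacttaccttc
Clonotype 6, TRB (TRBV15, TRBJ2-7): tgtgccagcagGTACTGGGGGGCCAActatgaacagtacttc
Clonotype 6, TRA (TRAV16N, TRAJ56): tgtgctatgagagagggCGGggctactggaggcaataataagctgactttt

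Expanded clonotypes ranged from 5 to 263 kept cells. Clonotype 1 had 263 cells, of which 259 were of the CD8 class, so that it alone held 29.5% of the expanded CD8 cells. Clonotypes 2, 3 and 4 followed with 88, 83 and 56 cells. In 42 of the 50 clonotypes CD8 class cells outnumbered CD4 class cells. These 42 held 871 CD8 class cells and 0 CD4 class cells, beside 16 cells with UMIs of both lineages and 2 with neither. The other 8 were CD4 clonotypes with 171 CD4 class cells, which gave 1 CD8 class cell each.

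**Figure D1:**
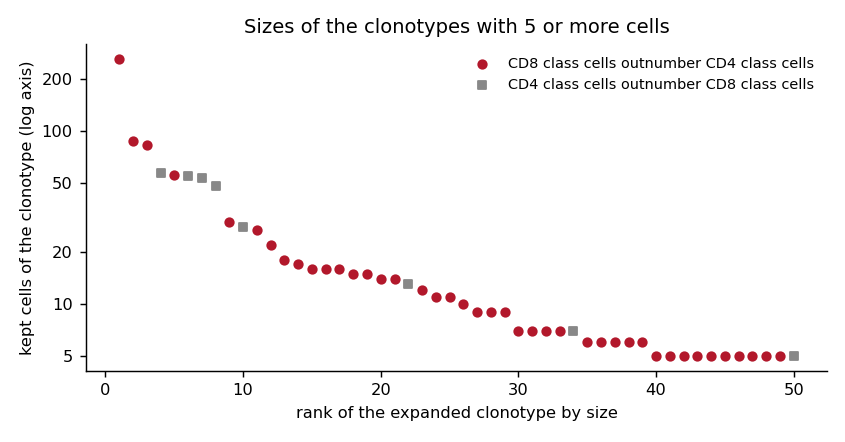
Kept cells of each of the 50 expanded clonotypes (y axis, log scale) by rank of size (x axis), with circles for the 42 clonotypes with more CD8 than CD4 class cells and squares for the other 8. The largest holds 263 cells and the smallest 5.

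The same receptor was in places split over clonotypes. Clonotypes 2 and 29 shared their TRB and 1 TRA CDR3; clonotype 29 had 6 cells and lacked the second TRA. Clonotypes 5 and 22 had the same TRB and the same TRA CDR3 and differed in the V segment assigned, TRAV9N-3 or TRAV9-3, which are copies of a duplicated gene. The TRB of clonotype 5 was found in 121 kept cells, of which 76 had no TRA chain, against 30 cells of the clonotype. The 50 expanded clonotypes thus held 48 different TRB. Of the 242 single cells, 88 (36.4%) had a TRB that was also in another kept cell, and 36 had the TRB of an expanded CD8 clonotype. Of these 36 cells, 23 also carried a TRA CDR3 of that clonotype and 13 did not. The remaining 154 single cells had a TRB seen in no other kept cell.

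So that large clonotypes did not decide the levels, up to 5 CD8 class cells were drawn from each expanded clonotype. This gave 217 expanded cells with 1475009 UMIs, against 242 single cells with 1843728 UMIs. The median depth was 5706 UMIs and 2014 genes per expanded cell, against 5559.5 UMIs and 2047.5 genes per single cell, but the upper quartile was 8206 UMIs in expanded and 9996.5 UMIs in single cells and the mean 6797 UMIs in expanded and 7619 UMIs in single cells. Mitochondrial UMIs made up a median of 2.05% in expanded and 2.18% in single cells. A level below is the sum of a gene's UMIs per 10000 UMIs of the group, and a ratio is the level in expanded over that in single clonotypes, with its exact conditional binomial interval.

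Few genes differed by much between expanded and single clonotypes. Of 6255 genes with 50 or more UMIs over both groups, 164 (2.62%) were at least 1.5-fold higher and 202 (3.23%) at least 1.5-fold lower in expanded clonotypes, and the median log2 ratio was 0.01. On the higher side, the granzyme Gzma and the surface protein Ly6c2 passed 1.5-fold, while the granzymes Gzmk and Gzmb stayed under it at ratios of 1.46 and 1.33. The level of Gzma lay above that of single clonotypes in 18 of 42 expanded clonotypes. Its direction turned under 2 alternatives, and it stayed past 1.5-fold under 11 of 22. Expanded cells had less RNA of the cytokine Csf2, of the survival gene Bcl2, of the memory genes Ccr7 and Tcf7, and of several TNF family ligands. The differences on the lower side were larger than those on the higher side, and many of them lay in few cells. When the 88 single cells with a shared TRB were left out, the log2 ratios of Csf2, Ccr7, Tcf7 and Bcl2 were -3.66, -3.69, -1.45 and -1.40 and those of Gzma and Gzmk were 0.72 and 0.89.

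**Figure D2:**
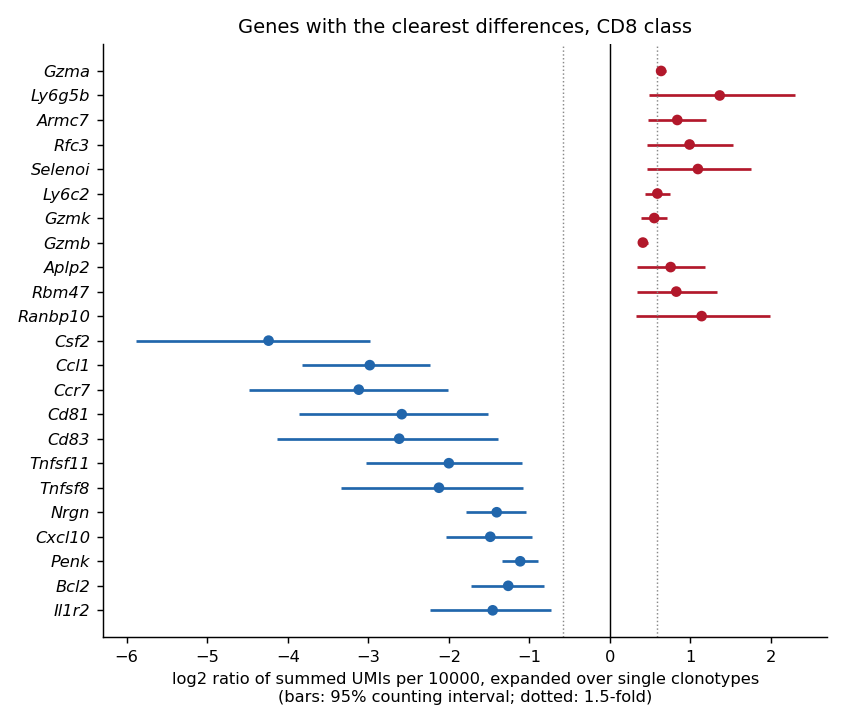
Log2 ratio of levels in expanded over single CD8 clonotypes (x axis) for 11 genes that were higher and 12 that were lower, ranked by how far their interval stayed from 1 and found in at least 10 clonotypes of the higher group. Bars are 95% counting intervals and dotted lines mark 1.5-fold; the lowest gene is Csf2 at -4.24 and the highest is Ly6g5b at 1.36.

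Among genes of the cytotoxic granule, Gzma, a serine protease that induces cell death, had the highest ratio in this draw of cells. Gzma (ENSMUSG00000023132, mm10 chr13:113093825-113100981, minus strand) stood at 29.1 UMIs per 10000 (28.3 to 30.003) in expanded and 18.7 (18.1 to 19.4) in single clonotypes, a ratio of 1.55 (1.49 to 1.63). It was found in 110 of 217 expanded and 103 of 242 single cells, and 398 of its UMIs in expanded and 311 in single cells came from 1 cell each. Over the 42 expanded clonotypes with at least 4 drawn cells, Gzma ranged from 0 to 223.6 UMIs per 10000 with a median of 6.18, and 18 of the 42 lay above the single level. The clonotypes were thus far apart, with clonotypes 19 and 21 the highest at 223.6 and 208.8. The median clonotype lay below the single level. That level sums 242 cells, of which 103 had Gzma, while each clonotype gave 4 or 5 cells. A median or a count of clonotypes below it therefore need not mean lower Gzma. Among the largest clonotypes, clonotype 1 had 31.8 and clonotype 2 had 2.81. The direction of Gzma was not stable: its log2 ratio was 0.64, but -0.98 among cells with fewer than 3 cell cycle UMIs and -0.21 when clonotypes were set by TRB alone. Its size was not stable either, since Gzma stayed at least 1.5-fold higher under only 11 of 22 alternatives.

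Gzmk (ENSMUSG00000042385, chr13:113171608-113225908, minus strand), a granzyme of early effector and memory cells, differed in a more even way. Its level was 4.67 UMIs per 10000 (4.33 to 5.03) in expanded and 3.19 (2.94 to 3.46) in single clonotypes, a ratio of 1.46 (1.31 to 1.64), just under 1.5-fold. In 30 of 42 expanded clonotypes Gzmk was above the single level, with a lowest value of 0.28, a median of 4.18 and a highest of 13.5, the last in clonotype 1. Gzmb (ENSMUSG00000015437, chr14:56258838-56262260, minus strand), the main apoptosis-inducing granzyme, was at 28.9 UMIs per 10000 (28.03 to 29.8) in expanded and 21.8 (21.1 to 22.4) in single clonotypes, a ratio of 1.33 (1.27 to 1.39). Of 42 clonotypes, 17 exceeded the single level of Gzmb, a count with the same limit as that for Gzma. Their range of 3.46 to 81.8 was wide against the difference between groups. Among cells with fewer than 3 cell cycle UMIs its log2 ratio was 0.01, against 0.41.

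The cytotoxic list held 11 measured genes, of which 1 (Gzma) was at least 1.5-fold higher and 1 (Gzmc) at least 1.5-fold lower in expanded clonotypes, with a median log2 ratio of 0.11. Fasl, the ligand of the death receptor Fas, was at a ratio of 1.2003 (1.03 to 1.397). Perforin (Prf1) had 229 UMIs in expanded and 334 in single cells, a log2 ratio of -0.22. Nkg7, a granule membrane protein, and Ctsw, a cathepsin, lay near 0 at 0.09 and 0.11. Of killer lectin and NK receptors, 1 of 8 measured genes was higher and none lower. Klrg1, an inhibitory lectin of effector cells, was at 0.664 UMIs per 10000 (0.539 to 0.8097) in expanded and 0.456 (0.363 to 0.564) in single clonotypes, a ratio of 1.46 (1.08 to 1.98). The 1 higher gene, Fcer1g, an adaptor of activating receptors, was found in 5 expanded and 9 single cells, with 48.4% of its expanded UMIs in 1 cell, and its log2 ratio of 1.03 turned to -1.90 among cells with few cycle UMIs.

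Ligands were lower in expanded clonotypes where they differed. Csf2 (ENSMUSG00000018916, chr11:54247271-54249667, minus strand) encodes the cytokine GM-CSF, which acts on myeloid cells. It had 5 UMIs in 5 expanded cells, against 118 UMIs in 21 single cells, a ratio of 0.0530 (0.0169 to 0.127). None of the 42 expanded clonotypes reached the single level of Csf2, and 38 had 0 UMIs. With 4 or 5 drawn cells each and Csf2 in 21 of 242 single cells, many would be at 0 at the single cells' share too. In single cells 22.9% of the Csf2 UMIs came from 1 cell. Csf2 was not limited to single cells with a TRB of their own: 11 of the 154 single cells with a unique TRB had it, and 10 of the 77 whose TRB was mostly that of other CD8 class cells.

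Lta, which encodes lymphotoxin alpha, had 4 UMIs in 4 expanded cells, against 49 UMIs in 7 single cells. Of 9 measured cytokines, Csf2 and Lta were lower and none higher. Ifng, the interferon gamma gene, was at 2.12 UMIs per 10000 (1.89 to 2.36) in expanded and 3.06 (2.81 to 3.32) in single clonotypes, a ratio of 0.691 (0.6002 to 0.795), and 9 of 42 expanded clonotypes lay above the single level. Tnf, Csf1 and Tgfb1 had log2 ratios of -0.24, -0.25 and -0.05.

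In the TNF superfamily, 4 of 9 measured ligands were at least 1.5-fold lower and none higher, with a median log2 ratio of -0.24. These were Lta, Tnfsf11, Tnfsf8 and Tnfsf9. Tnfsf11, the ligand of RANK, had 12 UMIs in 8 expanded cells and 60 UMIs in 26 single cells, a ratio of 0.24999 (0.122 to 0.469). Tnfsf8, the ligand of CD30, had 9 UMIs in 4 expanded cells and 49 UMIs in 28 single cells, a ratio of 0.2296 (0.0992 to 0.472). Tnfsf9, the ligand of 4-1BB, was at a ratio of 0.401 (0.245 to 0.636). Fasl and Ltb, of the same family, were above 0 at log2 ratios of 0.26 and 0.27. Over the whole list, the median was 0.13 with another draw of cells, and the summed UMIs were at a ratio of 1.02 (0.949 to 1.10).

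Among 6 measured chemokines, Ccl1 and Cxcl10 were lower. Cxcl10, a ligand of Cxcr3, had 40 UMIs in 23 expanded cells and 140 UMIs in 33 single cells, a ratio of 0.357 (0.245 to 0.511). Ccl1, the ligand of Ccr8, was at a ratio of 0.127 (0.0706 to 0.212), but 84.8% of its UMIs in single clonotypes came from 1 cell. Without the cell with most UMIs its log2 ratio was -0.26. The abundant chemokines of CD8 cells stayed close, Ccl5 at a ratio of 1.11 (1.09 to 1.13) and Ccl3 and Ccl4 at log2 ratios of 0.02 and 0.13. Xcl1, which attracts cross-presenting dendritic cells, was at 2.36 UMIs per 10000 (2.12 to 2.62) in expanded and 3.102 (2.85 to 3.37) in single clonotypes, with 59.5% of its expanded UMIs in 1 cell. Its log2 ratio of -0.40 was -2.36 with another draw of cells, -0.04 without its top cell and 0.55 among cells with few cycle UMIs, so it has no stable direction. Penk, which encodes an opioid precursor, was at a ratio of 0.462 (0.395 to 0.539), with 46.3% of its UMIs in expanded and 36.5% in single clonotypes in 1 cell each, and its log2 ratio was 1.42 among cells with few cycle UMIs.

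Among receptors for chemokines, Ccr2, which recruits cells to inflamed tissue, was at 1.55 UMIs per 10000 (1.35 to 1.76) in expanded and 1.03 (0.889 to 1.19) in single clonotypes, a ratio of 1.49997 (1.23 to 1.83), just under 1.5-fold, and 24 of 42 clonotypes lay above the single level. With expanded clonotypes counted from 10 cells its log2 ratio was -0.04.

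Ccr7 (ENSMUSG00000037944, chr11:99144196-99155077, minus strand) had 7 UMIs in 4 expanded cells, against 76 UMIs in 16 single cells, a ratio of 0.115 (0.0448 to 0.249). In single cells 26.3% of the Ccr7 UMIs came from 1 cell. Of 42 clonotypes, 38 had no Ccr7 UMI and 1 exceeded the single level. With 4 or 5 drawn cells each and Ccr7 in 16 of 242 single cells, many would be at 0 at the single cells' share too. Of the 16 single cells with Ccr7, 13 were among the 154 with a TRB of their own and 3 among the 77 whose TRB was mostly that of CD8 class cells. Ccr8, a receptor of tissue T cells, was at a ratio of 0.383 (0.229 to 0.619), in 11 expanded and 32 single cells. Cxcr4, the third lower receptor, had 71 UMIs in expanded and 145 in single cells, a log2 ratio of -0.71. Of 11 measured chemokine receptors, 3 were thus lower; Cxcr3, Cxcr6 and Ccr9 had log2 ratios of 0.22, -0.19 and -0.12.

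Genes of naive and memory cells were lower as far as they differed: 3 of 11 measured genes were at least 1.5-fold lower and none higher, with a median log2 ratio of -0.28. These were Ccr7, Tcf7 and Bcl2. Bcl2 (ENSMUSG00000057329, chr1:106538178-106714274, minus strand) encodes an inhibitor of mitochondrial cell death. It was at 0.3797 UMIs per 10000 (0.287 to 0.493) in expanded and 0.911 (0.779 to 1.06) in single clonotypes, a ratio of 0.417 (0.302 to 0.567), and was found in 40 of 217 expanded and 90 of 242 single cells. No single cell held more than 4.76% of the Bcl2 UMIs of single clonotypes. In 17 of 42 expanded clonotypes Bcl2 was at 0, clonotypes 1, 3, 4 and 6 among them, and 6 lay above the single level, up to 3.38 in clonotype 28.

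Tcf7, a factor of memory and stem-like T cells, had 17 UMIs in 13 expanded cells and 61 UMIs in 40 single cells, a ratio of 0.348 (0.191 to 0.604). When all 879 expanded cells entered instead of 5 per clonotype, its log2 ratio was -0.42 and no longer past 1.5-fold, against -1.52. Il7r, the receptor of the survival cytokine IL-7, was at a ratio of 0.796 (0.661 to 0.957). Lef1, a factor related to Tcf7, and Klf2, which maintains quiescence, were near 0 at log2 ratios of 0.21 and -0.04. In the Bcl2 family, 1 of 11 measured genes, Bcl2 itself, was past 1.5-fold. Mcl1, another survival gene, was at a ratio of 1.23 (0.986 to 1.55) and Bcl2l11, which encodes the opposing protein Bim, at 0.798 (0.659 to 0.965). Among cells with few cycle UMIs the log2 ratio of Mcl1 turned to -0.26, and with 1 cell per clonotype those of Bcl2l11 and Il7r turned to 0.16 and 0.17.

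The lower genes were also counted together in single cells. Among the 242 single cells, 21 had Csf2 and 16 had Ccr7, and 0 had both, although so few cells with either gene leave little room for overlap. Of the 16 with Ccr7, 7 also had Tcf7; of the 21 with Csf2, 1 had Tcf7; and of all 242, 40 had Tcf7. Of the 21 cells with Csf2, 11 also had Tnfsf11, 11 had Bcl2, 10 had Tnfsf8, 9 had Ccr8 and 8 had Ccl1. Over all 242 single cells, 26 had Tnfsf11, 90 had Bcl2, 28 had Tnfsf8, 32 had Ccr8 and 15 had Ccl1. These counts are from cells before thinning, and deeper cells show more genes, so depth was not taken into account. Gzmb was found in 18 of the 21 cells with Csf2, in 11 of the 16 with Ccr7 and in 189 of all 242. Gzmk was found in 9 of the 21, 6 of the 16 and 149 of the 242. For Gzma these counts were 6, 5 and 103. Markers of the CD4 lineage did not all go 1 way. Of the 3 measured genes of that list, Tnfrsf4 was lower in expanded clonotypes, while Icos and Ctla4 had log2 ratios of 0.02 and -0.07. Below the limit of 50 UMIs, Cd40lg had 6 UMIs in expanded and 25 in single cells. Zbtb7b had 3 in expanded and 9 in single cells, too few to settle a direction. Of the 21 cells with Csf2, 3 had Cd40lg and 2 had Zbtb7b, against 14 and 9 of all 242. Their part in the result was not tested.

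Among costimulatory receptors, 1 of 9 was lower and none higher. Tnfrsf4 (OX40) was at 1.96 UMIs per 10000 (1.74 to 2.199) in expanded and 2.95 (2.71 to 3.21) in single clonotypes, a ratio of 0.664 (0.574 to 0.767), but it was above 0, at a log2 ratio of 0.17, when each clonotype was weighted alike. Tnfrsf9 (4-1BB), a receptor of recently activated cells, was at 2.89 UMIs per 10000 (2.63 to 3.18) in expanded and 4.21 (3.92 to 4.52) in single clonotypes, a ratio of 0.687 (0.609 to 0.774), and 8 of 42 expanded clonotypes were above the single level. Cd226, an activating receptor, was higher at 1.68 UMIs per 10000 (1.48 to 1.904) in expanded and 1.14 (0.995 to 1.31) in single clonotypes, a ratio of 1.47 (1.22 to 1.77). Icos and Cd28 were close to 0 at 0.02 and -0.05.

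No inhibitory receptor of 9 measured passed 1.5-fold, and the list's median log2 ratio was -0.05. Pdcd1, which encodes PD-1, was at 5.18 UMIs per 10000 (4.82 to 5.56) in expanded and 6.503 (6.14 to 6.88) in single clonotypes, a ratio of 0.796 (0.726 to 0.873). Tox, a factor of exhausted cells, was at a ratio of 0.831 (0.664 to 1.04), with a log2 ratio of 0.10 among cells with few cycle UMIs, and Ctla4 at 0.9504 (0.854 to 1.06). Havcr2 and Lag3 were at log2 ratios of 0.21 and -0.14.

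Integrins had 7 of 8 measured genes above 0 and a median log2 ratio of 0.20, with none past 1.5-fold. Itgb7, the subunit that pairs with Itga4 in gut homing, was at 3.42 UMIs per 10000 (3.13 to 3.73) in expanded and 2.66 (2.43 to 2.91) in single clonotypes, a ratio of 1.28 (1.13 to 1.46). Itgb2, the common chain of leukocyte integrins, was at a ratio of 1.19 (1.05 to 1.34), whereas Itgav was at 0.745 (0.601 to 0.9199). Of 16 measured cytokine receptors, Il27ra and Il15ra were at least 1.5-fold higher and none lower. Il27ra, which binds IL-27, was at 0.739 UMIs per 10000 (0.607 to 0.891) in expanded and 0.472 (0.378 to 0.582) in single clonotypes, a ratio of 1.57 (1.17 to 2.1003), and above the single level in 30 of 42 clonotypes. Il21r was at a ratio of 0.756 (0.673 to 0.849).

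Genes linked to recent stimulation or to tissue dissociation leaned lower. Of 14 measured AP-1 and dissociation genes, Jun and Socs3 were lower and Atf3 higher, 3 of 14 were above 0, and the median log2 ratio was -0.23. Jun, an AP-1 subunit, was at 2.03 UMIs per 10000 (1.81 to 2.28) in expanded and 3.102 (2.85 to 3.37) in single clonotypes, a ratio of 0.656 (0.568 to 0.755), and its log2 ratio was -0.43 without its top cell, against -0.61. Socs3, a feedback inhibitor of cytokine signalling, was at 0.644 UMIs per 10000 (0.521 to 0.787) in expanded and 1.15 (1.0003 to 1.32) in single clonotypes, a ratio of 0.5601 (0.435 to 0.717). Heat shock genes had a median of -0.21, with 1 of 10 lower. In the early T cell receptor response, Egr1 was the 1 lower gene of 12 at 0.621 (0.469 to 0.817), with 27.95% of its single UMIs in 1 cell and a log2 ratio of -0.21 without its top cell, against -0.69, and Nr4a1 was near 0 at -0.10. Effector fate factors had a median of -0.07 and none of 13 past 1.5-fold; Tbx21 was at 0.11, Eomes at 0.29 and Runx3 at -0.43. Tissue residency genes had a median of 0.00 and none of 9 past 1.5-fold, with the early residency marker Cd69 at 0.00 and Cxcr6 at -0.19.

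Proliferation differed little. At least 3 UMIs over the mitosis and DNA replication genes were found in 65.4% of expanded cells (58.7 to 71.7) and 69.4% of single cells (63.2 to 75.2). None of 20 DNA replication genes and 1 of 20 mitosis genes passed 1.5-fold, with median log2 ratios of 0.09 and -0.17. Replication-dependent histones had a median of -0.19, with 1 of 10 (Hist1h3e) lower, though at 0.13 when clonotypes were set by TRB alone. Mcm3, a subunit of the replicative helicase, was at 1.37 (1.12 to 1.68), and Cdk1, the mitotic kinase, at 0.697 (0.526 to 0.9197). The log2 ratio of Mcm3 turned to -0.90 among cells with few cycle UMIs, against 0.46, and that of Cdk1 to 0.74 after thinning, against -0.52. Glycolysis and oxidative phosphorylation had medians of 0.05 and 0.02, with none of 15 and none of 18 genes past 1.5-fold. Among nutrient transporters, the amino acid carriers Slc7a5 and Slc7a6 were lower, 2 of 10, at 0.657 (0.474 to 0.904) and 0.639 (0.369 to 1.08).

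Among lists of abundant genes, all 12 measured genes of MHC class I and peptide loading were above 0, with a median log2 ratio of 0.16 and none past 1.5-fold; H2-D1 was at a ratio of 1.15 (1.103 to 1.19) and Tapbp at 1.24 (1.05 to 1.46). S100 proteins, annexins and galectins had a median of 0.23 with 9 of 12 above 0, and Anxa1 passed 1.5-fold. Anxa2 was at 1.27 (1.15 to 1.39), S100a10 at 1.21 (1.14 to 1.29) and Lgals1 at 1.18 (1.13 to 1.23). The Gimap genes, small GTPases of lymphocyte survival, had 7 of 8 above 0 and a median of 0.13, with Gimap7 at 1.33 (1.18 to 1.49). Interferon response genes had 6 of 11 above 0, a share close to that of all genes, and a median of 0.09; Ifi27l2a was at 0.671 (0.574 to 0.783), but at a log2 ratio of 0.34 with expanded clonotypes counted from 10 cells. Over all 6255 genes, 3237 were above 0.

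Among the other genes with the clearest higher ratios, Ly6c2 (ENSMUSG00000022584, chr15:75108158-75111970, minus strand), a surface protein of effector and memory CD8 cells, was at 5.37 UMIs per 10000 (5.002 to 5.76) in expanded and 3.57 (3.301 to 3.85) in single clonotypes, a ratio of 1.505 (1.36 to 1.67). It has near-identical neighbours, among which the authors' counting could have split reads. Over 42 clonotypes Ly6c2 ranged from 0 to 16.7 with a median of 5.10, and 28 were above the single level. Aplp2, a relative of the amyloid precursor protein, was at 0.759 UMIs per 10000 (0.625 to 0.914) in expanded and 0.4502 (0.359 to 0.558) in single clonotypes, a ratio of 1.69 (1.26 to 2.27), and 30 of 42 clonotypes were above the single level. Rfc3, a subunit of the clamp loader in DNA replication, was at 1.99 (1.38 to 2.88), but at a log2 ratio of -0.32 among cells with few cycle UMIs, and Rbm47, an RNA-binding protein, at 1.77 (1.26 to 2.51). Selenoi, an enzyme of phospholipid synthesis, was at 2.13 (1.37 to 3.36), and Armc7 at 1.79 (1.39 to 2.29). Ranbp10 and Ly6g5b rested on 58 and 52 UMIs in all, at 2.202 (1.26 to 3.96) and 2.57 (1.404 to 4.899); Ly6g5b was at a log2 ratio of -0.68 with 1 cell per clonotype.

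Further genes with the lowest ratios were Nrgn, Cd83, Cd81 and Il1r2. Nrgn, a calmodulin-binding protein, had 80 UMIs in 27 expanded cells and 265 UMIs in 56 single cells, a ratio of 0.377 (0.2901 to 0.486), but a log2 ratio of 0.42 among cells with few cycle UMIs. Cd83, a surface protein of activated lymphocytes, had 6 UMIs in 5 expanded and 46 UMIs in 14 single cells, a ratio of 0.163 (0.0569 to 0.383). Cd81, a tetraspanin, had 8 UMIs in 7 expanded and 60 UMIs in 16 single cells, a ratio of 0.167 (0.0688 to 0.3499). Il1r2, a decoy receptor of IL-1, had 21 UMIs in 9 expanded and 72 UMIs in 25 single cells, a ratio of 0.365 (0.213 to 0.5997). In single clonotypes 26.1% of the Cd83, 30.0% of the Cd81 and 37.5% of the Il1r2 UMIs came from 1 cell each.

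**Figure D3:**
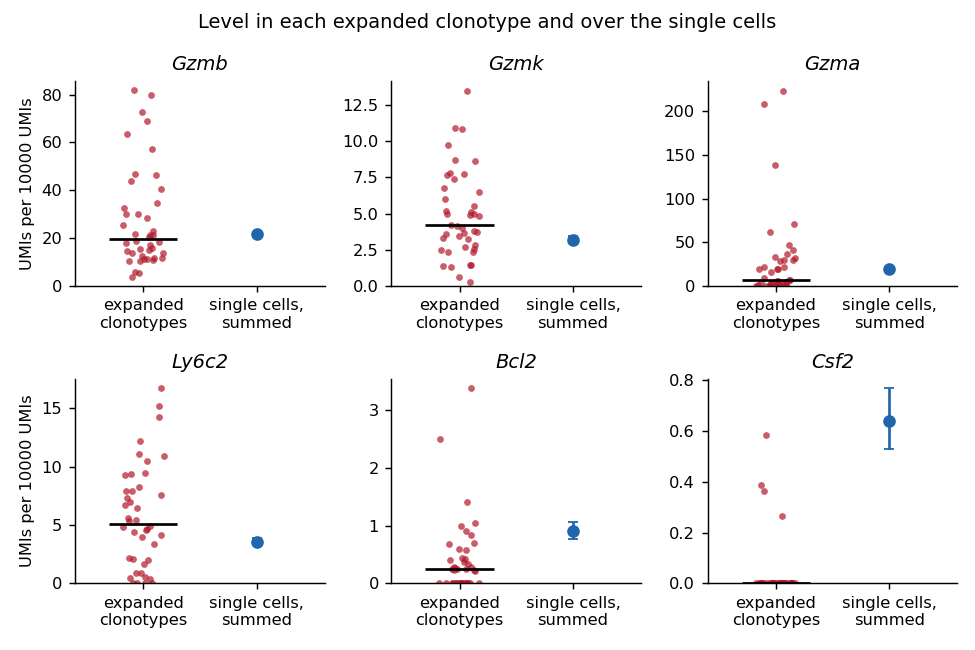
Level of 6 genes in UMIs per 10000 UMIs (y axes) in each of 42 expanded clonotypes with at least 4 drawn CD8 class cells (red points, black line at the median) and over the 242 single cells together (blue, 95% counting interval). Gzmk lies above the single level in 30 of 42 clonotypes, Gzmb in 17, and Csf2 in 0.

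Clonotype size was next divided further, because the comparison leaves out clonotypes of 2 to 4 cells. With sizes of 1, 2, 3 to 4, 5 to 9 and 10 or more cells, and at most 5 cells drawn per clonotype, the groups held 242, 71, 78, 111 and 106 cells. Bcl2 was lower in each larger size, at 0.91, 0.69, 0.61, 0.46 and 0.30 UMIs per 10000. With all cells in place of 5 per clonotype, Bcl2 had the same order, at 0.504 from 5 to 9 cells and 0.371 from 10. Ccr7 was at 0.41, 0.33, 0.13, 0.067 and 0.027, but its levels in the larger sizes rested on 7, 5 and 2 UMIs and their order on the draw. Another draw gave Ccr7 levels of 0.0136 from 5 to 9 cells and 0.0698 from 10, all cells gave 0.0560 and 0.0544, and a further draw from 10 cells gave a log2 ratio of -1.08 against single cells. Neighbouring sizes overlapped within their counting intervals for Bcl2, while the smallest (0.779 to 1.06) and the largest (0.189 to 0.457) did not.

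Csf2 was also highest in the smallest size, at 0.64 in single cells and 0.11, 0.019, 0.027 and 0.041 in the larger sizes. Each of the larger sizes rested on 6 Csf2 UMIs or fewer, so their order is not settled. Gzmk was at 3.19, 3.24, 4.13, 4.89 and 4.44, with clonotypes of 2 cells at the level of single ones, and with all cells at 4.95 from 5 to 9 cells and 5.25 from 10. Gzma was at 18.7, 19.6, 27.1, 34.2 and 23.9 and Gzmb at 21.8, 27.97, 22.3, 35.3 and 22.3, so neither followed size throughout. From 10 cells, Gzma was at 16.4 with another draw and 19.3 with all cells, against 18.7 in single cells. Gzmb from 10 cells was at 24.7 with another draw and 27.9 with all cells. The levels of both from 10 cells thus rested on the draw.

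**Figure D4:**
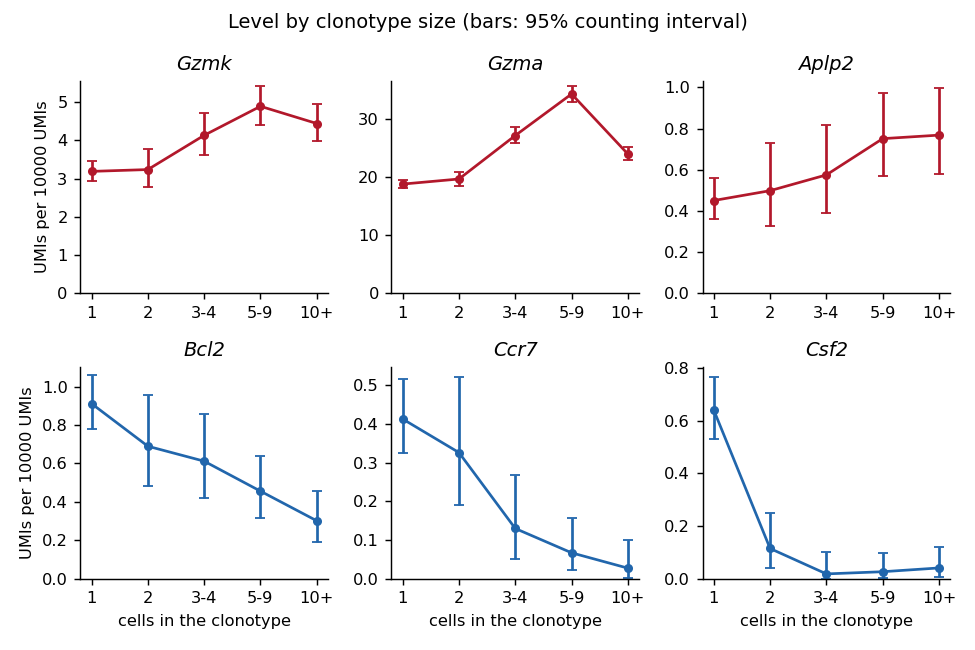
Level of 6 genes in UMIs per 10000 UMIs (y axes) by the number of cells in the clonotype (x axes), with 95% counting intervals and at most 5 cells per clonotype. Bcl2 goes down through all 5 sizes, with 0.91 at 1 cell and 0.30 at 10 or more, while Gzma is at 18.7 at 1 cell, 34.2 at 5 to 9 cells and 23.9 at 10 or more. The Gzma level at 10 or more cells rests on the draw.

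Shares of cells were compared after each cell was thinned to 2000 UMIs, which left out no cell. Gzmk was found in 51.2% of expanded cells (44.3 to 57.98) and 40.9% of single cells (34.7 to 47.4). Before thinning Gzmk was found in 77.4% of expanded and 61.6% of single cells. CD4 class cells, whose median depth before thinning was 4768 UMIs, had Gzmk in 11.5%.

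Bcl2 was found in 5.99% of expanded cells (3.23 to 10.0) and 20.7% of single cells (15.7 to 26.3) after thinning, and in 18.4% of expanded and 37.2% of single cells before. Csf2 was found in 0.922% of expanded (0.112 to 3.29) and 5.37% of single cells (2.89 to 9.01), and in 9.89% of CD4 class cells. The thinned shares had overlapping intervals for Ccr7, at 1.38% of expanded and 3.31% of single cells, and for Tcf7, at 3.23% of expanded and 7.85% of single cells. Ly6c2 was found in 46.5% of expanded, 38.4% of single and 3.33% of CD4 class cells, and Gzmb in 77.9% of expanded, 71.1% of single and 26.6% of CD4 class cells.

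**Figure D5:**
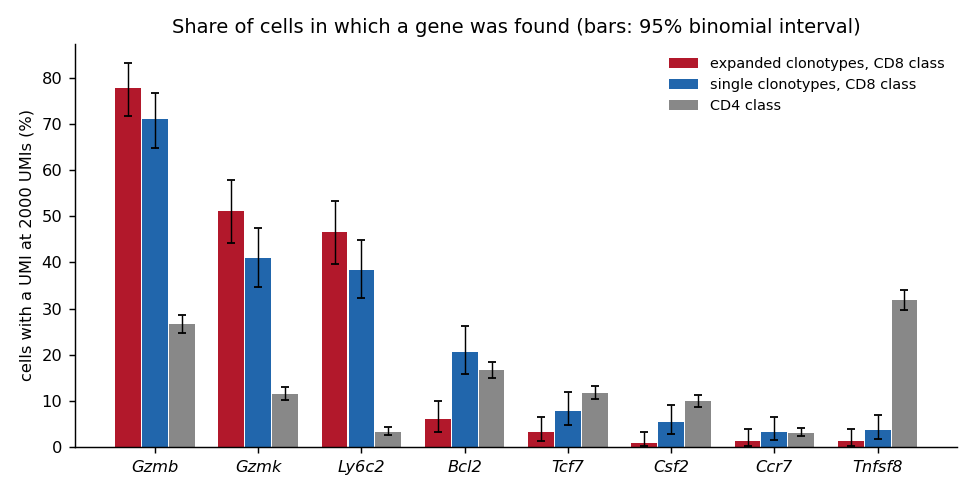
Share of cells with at least 1 UMI of 8 genes after thinning each cell to 2000 UMIs (y axis, %), in 217 expanded CD8 cells, 242 single CD8 cells and 1861 CD4 class cells, with 95% binomial intervals. The intervals of expanded and single cells are apart for Bcl2 and overlap for the other genes, for Csf2 between 2.89 and 3.29%.

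The same split was made in the CD4 class, with up to 5 cells per clonotype giving 224 expanded cells of 49 clonotypes and 213 single cells. Of 5815 measured genes, 262 (4.51%) were at least 1.5-fold higher and 250 (4.3%) at least 1.5-fold lower in expanded CD4 clonotypes. Csf2, Ccr7, Bcl2 and Nrgn were lower there too, at log2 ratios of -1.78, -1.44, -0.86 and -1.83, and Gzmk was higher at 1.18. Other genes of the CD8 comparison were on the other side of 0: Tcf7 was at 0.89, against -1.52 in the CD8 class, Cxcl10 was at 1.30, Il1r2 at 0.40, Ly6c2 at -1.28, Gzmb at -0.22 and Gzma at -4.90. Gzma had 46 UMIs in expanded and 1405 UMIs in single CD4 class cells. Whether the CD8 and CD4 differences differ from each other was not tested, since each class is 1 sample.

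Beyond size, the receptors of the groups had the same median length. The TRB CDR3 had a median of 42 nucleotides in expanded and in single clonotypes, with ranges of 30 to 51 in both. The stretch matching neither germline segment had a median of 11 bases in both. Expanded clonotypes used 16 TRBV segments and single ones 18. TRBV4 was used by 8 of 50 expanded clonotypes (16%, 7.17 to 29.1) and 16 of 242 single ones (6.61%, 3.83 to 10.5). TRBV16 was used by 1 of 50 expanded (2%, 0.0506 to 10.6) and 22 of 242 single clonotypes (9.09%, 5.79 to 13.4), and TRBV13-1 by 6 of 50 expanded (12%, 4.53 to 24.3) and 34 of 242 single ones (14.05%, 9.93 to 19.1). All 3 pairs of intervals overlapped. The 50 expanded clonotypes here include the 8 CD4 clonotypes. The 42 CD8 clonotypes alone used 15 TRBV segments, with TRBV4 in 6 of them (14.3%, 5.43 to 28.5). Cells with 2 or more TRA chains made up 8.76% of expanded (5.35 to 13.3) and 22.7% of single cells (17.6 to 28.5); the clonotype definition bears on this, since a further TRA chain makes another clonotype. Of the single cells, 33 of the 88 with a shared TRB and 22 of the 154 with a unique TRB had 2 or more TRA chains.

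Markers of cell types other than T cells were low in both groups. The macrophage list summed to 0.814 UMIs per 10000 in expanded and 1.37 in single clonotypes, and 2 or more of its genes were found in 15 of 217 expanded and 11 of 242 single cells; Csf1r and Adgre1 were at 0 in both. Of the Cd74 and Lyz2 UMIs of single clonotypes, 66.3% and 66.7% came from 1 cell. The neutrophil list summed to 0.169 in expanded and 0.396 in single clonotypes, nearly all of it Il1r2, with S100a8, S100a9 and Csf3r at 0. Fibroblast, mast cell, epithelial and endothelial lists summed to 0.0068, 0.027, 0.075 and 0.21 in expanded and 0.038, 0.049, 0.13 and 0.24 in single clonotypes. The erythroid list was at 0 in both. The B and plasma cell list summed to 1.42 in expanded and 1.42 in single clonotypes, most of it Xbp1, which T cells also express, and the NK cell list to 1.16 in expanded and 0.982 in single clonotypes, most of it Eomes. Without cells with 2 or more macrophage genes, the log2 ratios of Csf2, Bcl2 and Ccr7 were -4.45, -1.16 and -1.79. That of Gzmk was 0.50, and that of Gzma 0.18, against 0.64 in the main comparison. The expanded cells were drawn anew for this, 211 in place of 217, so these shifts cannot be told from those of another draw. Trdc and Ncr1, which mark gamma delta T cells and NK cells, were at 0 in both groups, and so were Foxp3, Il4, Il13 and Il22 of the CD4 lineage. The whole gamma delta list summed to 1.86 in expanded and 1.94 in single clonotypes, with at least 2 of its genes in 36 of 217 and 36 of 242 cells. The innate-like T cell list summed to 1.57 and 1.91, a ratio of 0.824 (0.695 to 0.975). At least 2 of its genes were found in 21 of 217 expanded and 45 of 242 single cells. Whether the groups differ in such cells was not tested.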

How the data were processed

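The RNA matrix as deposited holds whole-number UMI counts, not normalized, for each gene in each barcode. The submitters' processing notes name Cell Ranger, without its version, and the mm10 build. The deposited contig table gives read and UMI counts of every receptor contig, and its segments, CDR3 and productivity as the authors annotated them. The 2 libraries were joined by barcode.

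Barcodes with at least 500 genes and at most 10% mitochondrial UMIs were kept, 5333 of 5348. Doublets were not called; cells with 2 or more TRB chains had no clonotype. Clonotype size was counted over all kept cells. Up to 5 CD8 class cells per expanded clonotype were drawn at random, with a fixed seed. Receptor and immunoglobulin segments and Cd8a, Cd8b1 and Cd4 were not tested, and genes needed 50 UMIs over both groups. A gene with 0 UMIs in a group was set to 3 UMIs over the group for its ratio. Levels carry exact Poisson intervals, ratios exact conditional binomial and shares Clopper-Pearson ones, each at 95%. They take UMIs as independent, cover counting error only and are too narrow where a few cells hold most UMIs. The ratio step was tested on simulated data. With 1 pooled sample there was no test.

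The genes named are the 12 highest and the 12 lowest by the interval bound nearest 1, with UMIs in at least 10 clonotypes of the higher group, without receptor, immunoglobulin, mitochondrial, ribosomal and predicted genes, plus up to 4 measured members of each gene list with bounds farthest from 1. Of the 12 highest, 1 is not reported here. Further list members are named beside them and were chosen after their values were seen. The groups and gene lists were chosen with earlier results of these data known. Gene positions are 1-based, from GENCODE M21. Alternatives changed the draw, the size limits, the clonotype and CD8 definitions, the filters, cell cycle, depth and single cells or clonotypes. For those that left out cells by cell cycle or macrophage genes, the expanded cells were drawn anew. Python 3.11.15 was used with pandas 2.3.3, numpy 2.4.6, scipy 1.17.1 and, for plots, matplotlib 3.10.9.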

Additional observations from a re-analysis of the deposited data

Results flagged for a closer look

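The receptor library held 329 barcodes with a clonotype that were not in the RNA matrix, and 63 of them carried the clonotype of an expanded CD8 clone. These barcodes entered no comparison. Of the 242 single CD8 clonotypes, 9 were also found in such a barcode, so that the receptor library held more than 1 barcode of them.

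In the 42 expanded CD8 clonotypes, 16 cells had UMIs of Cd4 as well as of Cd8a or Cd8b1, against 871 cells of the CD8 class and 0 of the CD4 class. They were left out of the comparison because the CD8 class admits no Cd4 UMI.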

How the results depend on the processing

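Of the 24 genes with the clearest ratios, 19 kept their sign under all alternatives run, and 7 stayed past 1.5-fold in their direction under all: Csf2, Ccr7, Cd81, Cd83, Tnfsf8, Cxcl10 and Bcl2. The log2 ratio ranged from -5.15 to -2.89 for Csf2, -4.13 to -1.08 for Ccr7, -1.50 to -0.81 for Bcl2 and 0.33 to 0.89 for Gzmk. The count of 164 higher genes became 318 without the limit of 5 cells per clonotype, 299 with 1 cell per clonotype, 339 with clonotypes weighted alike, 92 after thinning, 438 from 20 UMIs and 1115 without a minimum. The count of 202 lower genes became 425 with 1 cell per clonotype, 101 in cells with few cycle UMIs, 81 after thinning, 540 from 20 UMIs and 1341 without a minimum. More genes enter at a lower minimum and fewer after thinning; the cause of the other shifts was not tested.

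Of 37 genes described that were past 1.5-fold, 10 changed sign under at least 1 alternative, and of 89 that were not, 49 did. Of the 37, among cells with few cycle UMIs (131 expanded and 74 single cells), the log2 ratio changed sign for Gzma (-0.98), Rfc3 (-0.32), Nrgn (0.42), Penk (1.42), Fcer1g (-1.90), Cd74 (0.10) and Lyz2 (1.42). With clonotypes set by TRB alone it changed sign for Gzma (-0.21), Hist1h3e (0.13), Cd74 (2.40) and Lyz2 (2.83). With 1 cell per clonotype it did so for Ly6g5b (-0.68) and Fcer1g (-0.25), from 10 cells for Fcer1g (-1.30), and with clonotypes weighted alike for Tnfrsf4 (0.17). Cd74 and Lyz2 also changed sign with single cells of a unique TRB (0.51 and 0.30), with exactly 1 TRA (0.55 and 0.41), with both Cd8 genes (1.17 and 0.23) and after leaving out each gene's top cell (0.46 and 0.32). The causes of the other reversals were not tested. Without its top cell, Gzma (0.50), Ly6c2 (0.53), Penk (-0.46), Slc7a5 (-0.46) and Slc7a6 (-0.58) were under 1.5-fold. Restricting expanded clonotypes to those with more CD8 than CD4 class cells, an alternative chosen after seeing the data (as were the other draws by clonotype size), gave -4.18 for Csf2, -1.31 for Bcl2 and 0.56 for Gzmk. List medians also changed sign. Those of TNF ligands and inhibitory receptors kept it under 17 of 22 alternatives, and those of mitosis and DNA replication genes under 18. The median of tissue residency genes kept it under 7, and those of integrins, MHC class I, S100 and AP-1 genes under all 22. No paired analysis was possible because the pool is 1 sample. Depth limits genes such as Csf2, with 5 UMIs in expanded cells, and mouse of origin is unknown.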
